A study of Mus musculus with 8 samples.

Results

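The genes described here are 10 tubulin genes of the mouse (Tubb6, Tubb2a, Tubb2b, Tubb3, Tubb4a, Tubb4b, Tubb5, Tuba1a, Tuba4a and Tuba8), followed in 8 reperfused hearts. They were selected by family membership, and the family was picked because Tubb6 had been higher in every DJ-1 heart of these same data. Of the 10 genes, 9 had a probe set annotated to them alone and are measured here, among 19938 genes with a single symbol. Both probe sets of Tubb4b carry a further gene symbol, so Tubb4b is not described. Tubb6 alone was chosen for its values, in the contrast of DJ-1 with placebo, and that contrast is therefore given for Tubb6 as a description with no test.

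Mice of the DJ-1 group (4 arrays) had been given recombinant DJ-1 protein, and mice of the placebo group (4 arrays) had been given PBS, in both cases 1 hour ahead of ligation of the left anterior descending (LAD) coronary artery. The occlusion lasted 45 minutes and reperfusion 2 hours in both groups, so all 8 hearts were injured and reperfused. All animals were male, 8 to 10 weeks old, 25 to 30 g in weight and of the strain that the labels call CH3. DJ-1, the product of Park7, is a redox-sensitive protein that protects cells against oxidants. Expression was read on Affymetrix whole-transcript arrays and is given as log2 values after robust multi-array averaging (RMA), in which a difference of 1 means a doubling. Samples carry a number inside their group, and nothing used here says whether each came from a separate mouse, so p-values measure the spread between these samples.

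Tubulin is the building block of microtubules. One alpha and one beta subunit form the dimer that polymerises, and mammals encode several alpha and beta isotypes that differ mostly in their C-terminal tails. In cardiac muscle cells microtubules carry cargo, position organelles and bear load during contraction, and chemically modified microtubules stiffen the cell. Because microtubules are shared by all cells of the heart, tubulin transcripts in whole tissue come from muscle, vessel, connective tissue, nerve and blood cells together. In such bulk tissue, fewer cells of a type and less RNA per cell cannot be told apart.

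The 8 arrays had median values of 5.25 to 5.35 over all probe sets, and array pairs correlated at 0.978 to 0.987. The first principal component placed DJ-1 replicates 3 and 4 apart, with scores of 19.6 and 23.5, the remaining 6 arrays scoring -15.0 to 5.31. All 12 listed ventricular cardiomyocyte markers lay above 4.74, the 95th percentile of the olfactory receptor genes, which heart hardly transcribes and which serve as a guide to background. Among them the troponin subunit Tnni3 was at 13.66 ± 0.06 in DJ-1 hearts and 13.69 ± 0.07 in placebo hearts, and Tnnt2 at 13.66 ± 0.01 in DJ-1 hearts and 13.63 ± 0.05 in placebo hearts (SD, n = 4 each). By the same guide 8 of the 9 measured tubulins were above background, and Tubb3 was not.

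Tubb6 encodes a class V beta-tubulin, an isotype that is raised in the skeletal muscle of dystrophic mice. Its levels were 7.84, 8.10, 7.91 and 8.12 in DJ-1 replicates 1 to 4, against 7.62, 7.72, 7.62 and 7.52 in placebo replicates 1 to 4. The lowest DJ-1 heart stood 0.12 above the highest placebo heart, so the groups did not overlap, which is the pattern the gene was picked for. The means were 7.99 ± 0.14 in DJ-1 hearts and 7.62 ± 0.08 in placebo hearts (SD, n = 4 each), a difference of 0.37 (SE 0.10) or 1.29-fold. Over all genes, 308 of 19938 (1.54%) had every DJ-1 heart above every placebo heart and 334 (1.68%) the reverse, and nothing is read from the place of Tubb6 among them. In each of the other 8 measured members the lowest DJ-1 heart lay below the highest placebo heart, by least in Tuba4a (0.17). Tuba4a also had the smallest within-group SD of the measured members (0.08) and a difference of 0.01, so this small gap is no sign of separation. Tubb6 had a within-group SD of 0.11, and 19.6% of genes had a smaller one. The choice of a gene whose groups lay apart favours a small SD, so nothing is read from this rank. For Tubb5 and Tubb4a the share of genes with a smaller SD was close to it, at 19.8% and 21.2%.

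**Figure D1:**
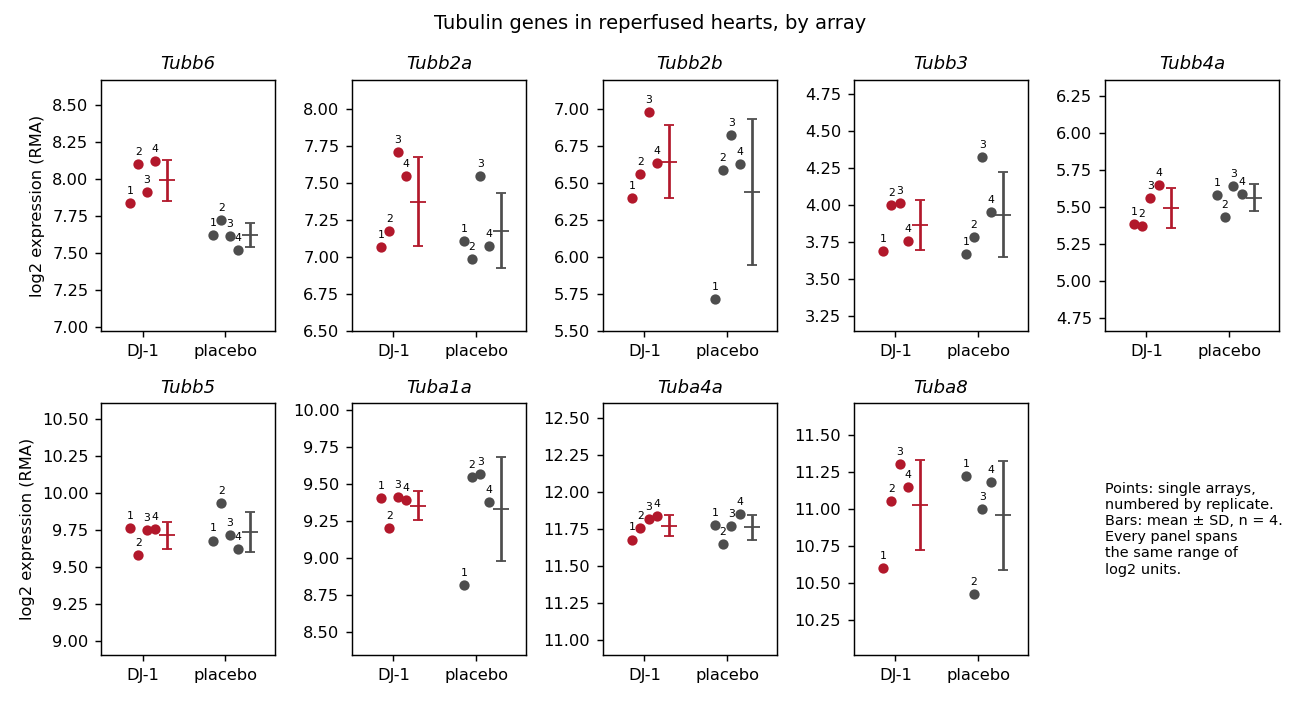
Log2 expression (RMA, vertical axis) of the 9 measured tubulin genes in 4 DJ-1 and 4 placebo hearts, one point per array numbered by replicate, with mean ± SD bars. The Tubb6 points lie between 7.84 and 8.12 in DJ-1 hearts and between 7.52 and 7.72 in placebo hearts, while the groups of every other gene overlap.

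Among the other beta-tubulins, Tubb2a and Tubb2b are isotypes best known from neurons. Tubb2a was at 7.07, 7.18, 7.71 and 7.55 in DJ-1 replicates 1 to 4 and at 7.11, 6.99, 7.55 and 7.07 in placebo replicates 1 to 4. Replicate 3 was the highest heart of each group, and the groups overlapped over most of their range. The difference was 0.20 (SE 0.16, 95% confidence interval -0.16 to 0.55), and it was 0.08 when DJ-1 replicate 3 was dropped and 0.32 when placebo replicate 3 was dropped. Tubb2b was at 6.40, 6.56, 6.98 and 6.63 in DJ-1 hearts and at 5.71, 6.59, 6.82 and 6.63 in placebo hearts. Placebo replicate 1 was far below the other 7 hearts, and the difference of 0.21 (-0.27 to 0.68) was -0.04 without that array. With an SD of 0.39 within groups, Tubb2b was the most variable of the 9 genes, and 97.3% of all genes varied less. Tubb2a and Tubb2b are close paralogs, a further probe set carries both of their symbols, and cross-hybridisation between them was not tested.

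Tubb5 encodes the beta-tubulin that most cell types use. It was at 9.77, 9.58, 9.76 and 9.76 in DJ-1 hearts and at 9.68, 9.93, 9.72 and 9.63 in placebo hearts. DJ-1 replicate 2 was the lowest heart and placebo replicate 2 the highest, and the difference was -0.02 (95% confidence interval -0.24 to 0.19). Tubb4a, an isotype of brain and of myelinating oligodendrocytes, was at 5.39, 5.37, 5.56 and 5.65 in DJ-1 hearts and at 5.58, 5.43, 5.65 and 5.59 in placebo hearts. Its groups overlapped and differed by -0.07 (-0.29 to 0.15). Tubb3, the neuronal class III beta-tubulin, lay between 3.68 and 4.01 in DJ-1 hearts and between 3.67 and 4.32 in placebo hearts. This range is that of the olfactory receptor genes, so its difference of -0.07 (-0.39 to 0.25) compares values near background.

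Of the alpha-tubulins, Tuba1a is the main isotype of developing neurons and is also made in other tissues. It was at 9.41, 9.20, 9.41 and 9.39 in DJ-1 hearts and at 8.82, 9.55, 9.57 and 9.38 in placebo hearts. Placebo replicate 1 was again the lowest heart and the remaining placebo hearts lay close to or above the DJ-1 hearts. The difference was 0.02 (95% confidence interval -0.31 to 0.36), and without placebo replicate 1 it was -0.15.

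Tuba4a encodes an alpha-tubulin that lacks the C-terminal tyrosine of most alpha isotypes and is made in muscle, brain and platelets. Tuba8 encodes a divergent alpha-tubulin that is found in heart, skeletal muscle and testis. Tuba4a was the steadiest of the 9 genes, at 11.68, 11.75, 11.82 and 11.84 in DJ-1 hearts and at 11.78, 11.65, 11.77 and 11.85 in placebo hearts. Its within-group SD was 0.08, only 5.44% of genes varied less, and the difference was 0.01 (95% confidence interval -0.18 to 0.21). Tuba8 was at 10.60, 11.06, 11.31 and 11.15 in DJ-1 hearts and at 11.22, 10.42, 11.00 and 11.18 in placebo hearts. One heart of each group, DJ-1 replicate 1 and placebo replicate 2, lay well below the rest, and the difference was 0.07 (-0.35 to 0.49). Dropping DJ-1 replicate 1 gave 0.21 and dropping placebo replicate 2 gave -0.11, so its sign rests on single hearts. Their promoters are shown because these were the tubulins with the highest Pearson's r from heart to heart, as described further on.

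The promoter windows of 300 bases, 250 before and 50 after the transcription start, come from RefSeq on build GRCm38.p6. After an exclusion of the windows of a single chromosome, 8 of the 10 tubulin genes were left with a window, Tubb6 and Tubb2b not among them. Whether that exclusion accounts for the absence of Tubb6, of Tubb2b or of both was not examined. Their absence does not by itself show that RefSeq holds no window for them. That of Tuba4a is chr1:75219245-75219544 on the minus strand and that of Tuba8 is chr6:121210484-121210783 on the plus strand. Both are written 5′ to 3′ in the direction of transcription. Capitals mark matches on either strand to the CCAAT box (CCAAT), the GC box (GGGCGG) and the E-box (CANNTG).
Tuba4a: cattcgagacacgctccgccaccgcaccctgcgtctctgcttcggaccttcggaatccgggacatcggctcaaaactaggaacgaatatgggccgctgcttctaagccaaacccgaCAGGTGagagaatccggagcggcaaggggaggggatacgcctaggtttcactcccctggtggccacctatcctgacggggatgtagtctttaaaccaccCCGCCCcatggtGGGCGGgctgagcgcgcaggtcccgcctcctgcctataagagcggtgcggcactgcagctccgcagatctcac
Tuba8: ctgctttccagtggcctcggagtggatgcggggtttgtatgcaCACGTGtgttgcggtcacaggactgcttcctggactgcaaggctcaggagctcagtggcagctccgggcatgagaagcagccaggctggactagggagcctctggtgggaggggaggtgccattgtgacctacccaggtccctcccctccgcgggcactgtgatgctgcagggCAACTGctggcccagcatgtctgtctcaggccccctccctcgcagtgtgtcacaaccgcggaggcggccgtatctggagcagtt
The Tuba4a window held 2 GC boxes and 1 E-box, and the Tuba8 window held 2 E-boxes, with no GC box. Neither held a CCAAT box (0 in each). Among 32851 windows of the same length, 35.7% held a GC box, 72.3% an E-box and 37.4% a CCAAT box. GC content was 62.0% in Tuba4a and 63.7% in Tuba8. These matches describe letters and do not show a bound factor.

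Counted together, 6 of the 9 measured tubulins averaged higher and 3 lower in DJ-1 hearts, the median difference being 0.02, beside a median of 0.01 over all 19938 genes. Of the 8 members other than Tubb6, none (0) had a limma adjusted p under 0.05. The same fit called 0 of 19938 genes (0%), so the count of members holds no information of its own. None of these 8 members (0) had an unadjusted p under 0.05, with or without moderated variances. Without moderation 1118 of 19938 genes had such a p. Over all genes limma's unadjusted calls numbered 724 on the higher side (3.63%) and 470 on the lower side (2.36%). This split became 435 higher against 796 lower when array medians were set equal. It was 568 against 497 after a further quantile normalization and 544 against 525 after cyclic loess scaling. The tubulins averaging higher numbered 4, 5 and 6 of the 9 under these scalings, in the same order. The Tubb6 groups stayed apart under each of the 3 other scalings, at a difference of 0.33 to 0.41. These scalings reuse the values that Tubb6 was picked on, so this is a description and no support for its difference.

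**Figure D2:**
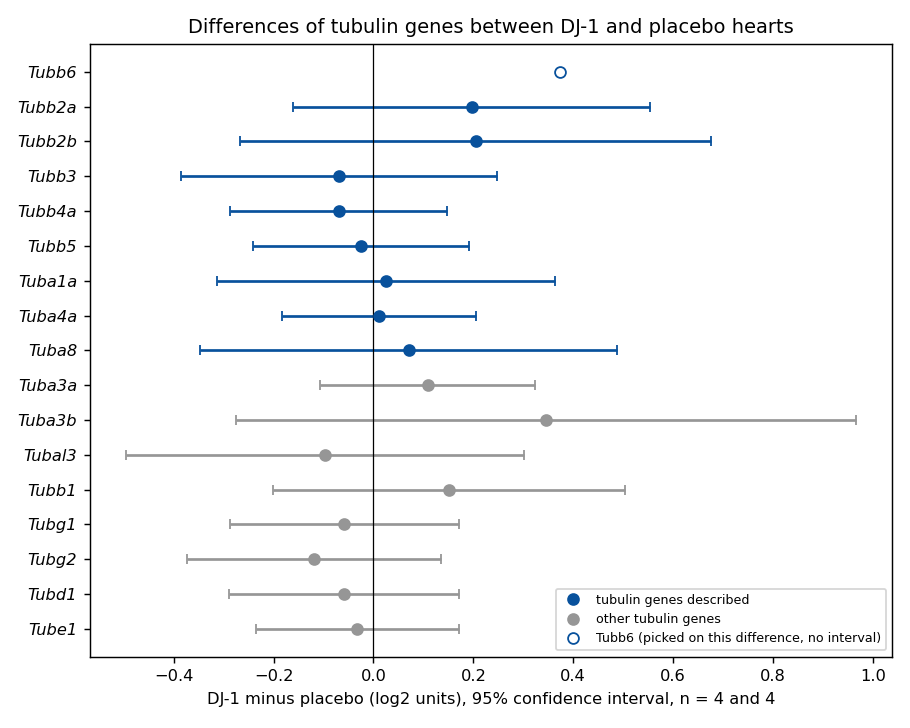
Difference between DJ-1 and placebo hearts in log2 units (horizontal axis) for the 9 measured tubulins (blue) and 8 further tubulin genes (grey), with 95% confidence intervals of the limma fit. Tubb6 stands at 0.37 and is drawn without an interval because it was picked on this difference, and the interval of each other gene crosses 0.

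The remaining tubulin genes were taken from a list of 10, of which 8 had a probe set of their own. Tuba1b and Tuba1c did not, since every probe set that names them names a further alpha-tubulin as well. None of the 8 (0) passed in the limma fit (adjusted p 0.863 to 0.962), none had an unadjusted p under 0.05 (0), and 3 averaged higher and 5 lower in DJ-1 hearts. Tubb1, the beta-tubulin of platelets and their precursors, was at 6.11 ± 0.12 in DJ-1 hearts and 5.96 ± 0.37 in placebo hearts (SD, n = 4 each), a difference of 0.15 (95% confidence interval -0.20 to 0.50). Beside it, the summed signal of the 6 measured platelet markers (the log2 of their added unlogged values, which the brightest probes dominate) was 8.96 to 9.43 in DJ-1 hearts and 8.94 to 9.86 in placebo hearts, with 5 genes higher and 1 lower and all 6 above background. Among these markers were Ppbp, at 7.63 ± 0.44 in DJ-1 and 7.58 ± 1.03 in placebo hearts, and Pf4, at 7.42 ± 0.29 in DJ-1 and 7.37 ± 0.35 in placebo hearts.

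Tubg1 and Tubg2 encode gamma-tubulins, which start new microtubules. Tubg1 was at 8.70 ± 0.09 in DJ-1 hearts and 8.76 ± 0.16 in placebo hearts, and Tubg2 at 6.01 ± 0.19 and 6.13 ± 0.14 in the same order (SD, n = 4 each). Delta- and epsilon-tubulin, which belong to centrioles, differed by -0.06 (Tubd1) and -0.03 (Tube1). Tuba3a and Tuba3b, alpha-tubulins of testis, differed by 0.11 and 0.35. The Tuba3b value rests on levels of 3.11 to 3.36 in DJ-1 hearts and 2.21 to 3.53 in placebo hearts, at background, as were Tubal3 (difference -0.10) and Tube1.

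How the 9 tubulins varied together among hearts was examined on deviations from the group means, which do not hold the contrast that picked Tubb6. The deviations of Tubb6 were set against those of each of the other 8 genes over 8 arrays, with exact permutation of the arrays within groups, two-sided, and Benjamini-Hochberg adjustment over the 8 relations. Pearson's r lay between -0.07 and 0.14 for all 8, with the smallest permutation p at 0.719 and every adjusted p at 0.984. Spearman's rho ran from -0.33 (Tuba1a, permutation p = 0.351) to 0.12 (Tubb2a). The near-zero r depended on the hearts used. Without the 2 arrays farthest from the Tubb6 median, r was -0.89 with Tuba4a, -0.85 with Tubb4a and -0.78 with Tuba8, over 6 arrays, so no relation or lack of one is fixed by these hearts.

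**Figure D3:**
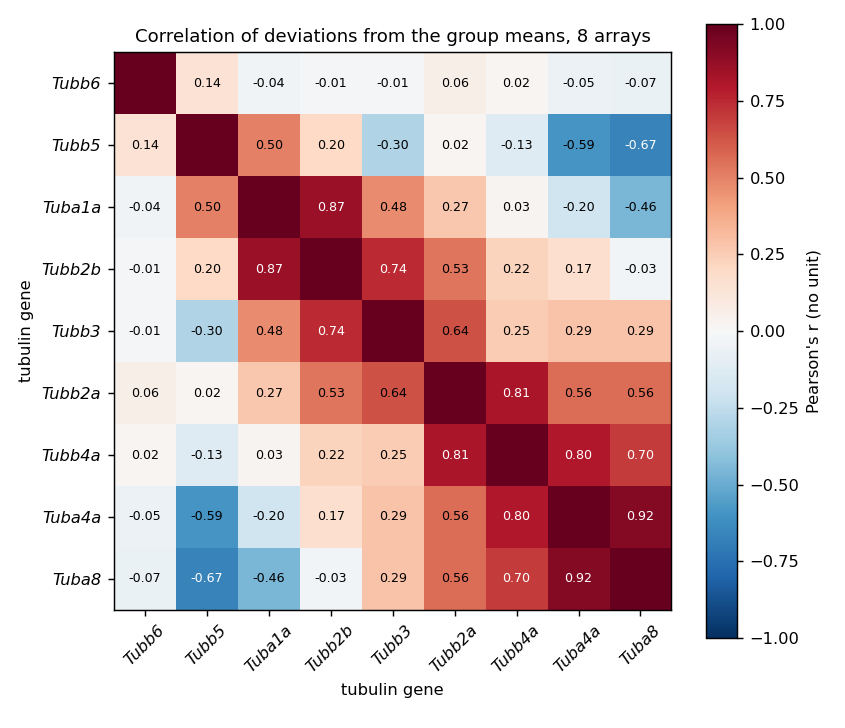
Pearson's r between the deviations of 9 tubulin genes from their group means over 8 arrays, from -1 (blue) to 1 (red), with each value printed in its cell. The Tubb6 row stays between -0.07 and 0.14, and Tuba4a with Tuba8 reaches 0.92.

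Over all 36 pairs of the 9 genes, no pair (0) passed an adjusted permutation p of 0.05 by Pearson's r or by Spearman's rho. The smallest p that these permutations allow is 0.00174. The highest Pearson's r was that of Tuba4a and Tuba8, with r = 0.92 (exact permutation p = 0.0139, adjusted p = 0.5) and rho = 0.81 (permutation p = 0.0451, adjusted p = 0.475). By rank Tubb2b and Tubb3 stood higher, with rho = 0.83 (permutation p = 0.0313, adjusted p = 0.475) and r = 0.74 (permutation p = 0.111, adjusted p = 0.571), though Tubb3 lay at background. Tuba4a and Tuba8 were both low in DJ-1 replicate 1 and placebo replicate 2. Dropping 1 array at a time left their r between 0.84 and 0.96. Without the 2 arrays farthest from the Tuba4a median r was 0.52, so much of the relation rests on those hearts together. Tubb2b and Tuba1a followed with r = 0.87 (permutation p = 0.0625, adjusted p = 0.55) and rho = 0.76 (permutation p = 0.0556, adjusted p = 0.475). Much of that value rests on placebo replicate 1, in which both genes were lowest, since r was 0.28 without this array. Without the 2 arrays farthest from the Tubb2b median r was 0.59. Tubb2a and Tubb4a had r = 0.81 (permutation p = 0.0625, adjusted p = 0.55) and rho = 0.81 (permutation p = 0.0538, adjusted p = 0.475), with r between 0.77 and 0.86 over the 8 fits that drop 1 array, and 0.93 without the 2 farthest. Tubb5 ran against Tuba8 with r = -0.67 (permutation p = 0.149, adjusted p = 0.608) and rho = -0.43 (permutation p = 0.333, adjusted p = 0.743), and r was -0.34 without the 2 farthest arrays.

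**Figure D4:**
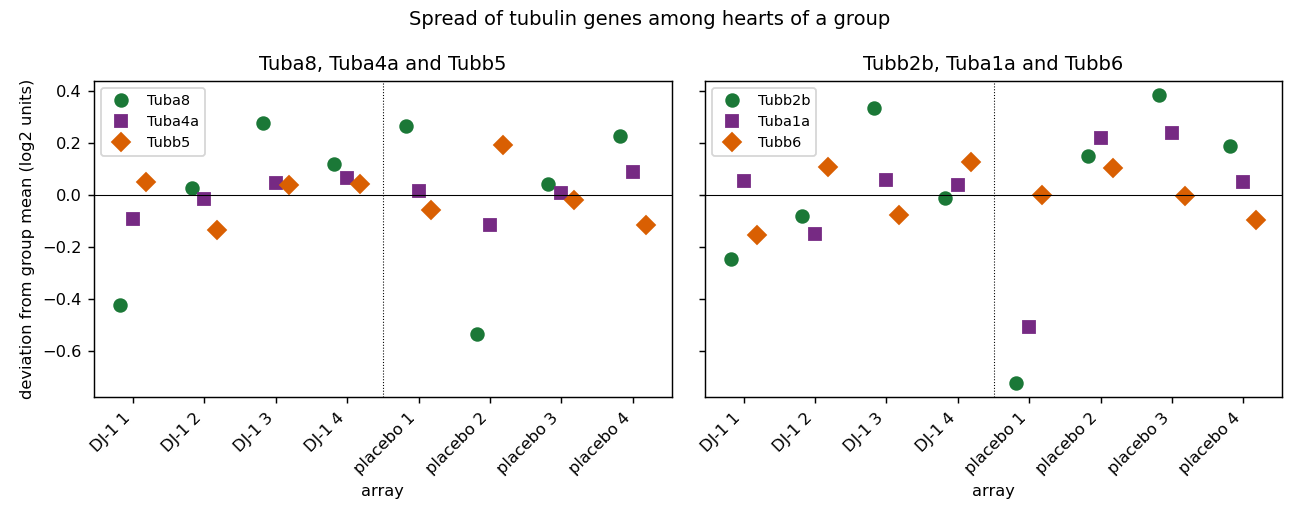
Deviation from the group mean in log2 units (vertical axis) of 3 tubulin genes per panel in each of 8 arrays. Tuba8 and Tuba4a are both low in DJ-1 replicate 1 and placebo replicate 2, and Tubb2b and Tuba1a are both lowest in placebo replicate 1.

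Genes with a pattern like that of Tubb6 were sought by Pearson's r of the deviations over 8 arrays, among 9674 genes with a mean above that of the median gene, leaving out chemosensory receptor, immune receptor, predicted and small RNA genes. The 8 most alike were Csrnp2 (r = 0.96), Spin1 (0.95), Fam104a (0.95), Gipc3 (0.92), Nkx2-4 (0.91), Nfkbie (0.91), Ermp1 (0.91) and Ptpn6 (0.90). The 4 most opposite were Lrrk1 (-0.98), Zmiz1 (-0.97), Dusp6 (-0.97) and Slc25a4 (-0.95). These are the extremes of a search over 9674 genes in 8 arrays and are given as a description. Their differences between DJ-1 and placebo hearts ran from -0.26 for Gipc3 to 0.34 for Csrnp2, and none (0) had an adjusted p under 0.05 by limma.

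Tubulin subunits need chaperones before they can pair. The CCT chaperonin and prefoldin fold them, and tubulin cofactors join alpha to beta. None of the 14 measured CCT and prefoldin genes or the 8 measured cofactor genes passed adjustment (0) or reached an unadjusted 0.05 (0) by limma, and the unmoderated test gave 1 of the 22 such a p. Their median differences were 0.01 and -0.04. Over all genes the unmoderated test gave 1118 of 19938. The smallest p among the cofactor genes belonged to Tbcd (-0.19), Tbcb (0.17) and Tbcel (-0.15), and in the chaperonin list to Pfdn4 (-0.21), Pfdn6 (0.13) and Cct2 (0.13). Cct2 encodes a subunit of the chaperonin ring, and its levels of 9.49 to 10.20 in DJ-1 hearts overlapped those of 9.52 to 10.08 in placebo hearts.

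Enzymes that modify tubulin change how microtubules bind motors and resist load. Of 24 measured, 19 averaged higher and 5 lower in DJ-1 hearts, with a median difference of 0.06, and none (0) had an unadjusted p under 0.05 by either test. Over all genes 10470 averaged higher and 9468 lower. The median of all genes moved from 0.008 to -0.034 when array medians were set equal, and the direction counts of the lists were not repeated under that scaling. The largest differences among the 3 of smallest p were in Ttll9 at 0.21, Ttll3 at 0.18 and Ttll6 at 0.17, members of the tubulin tyrosine ligase-like family. Ttll6 lay at background, between 4.04 and 4.25 in DJ-1 hearts and between 3.86 and 4.14 in placebo hearts.

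Among 44 measured microtubule-binding genes, 12 averaged higher and 32 lower in DJ-1 hearts (median -0.06). None (0) passed adjustment, and 1 in each direction fell under an unadjusted 0.05 by limma, against 1 in all by the unmoderated test. Over all genes limma gave 3.63% on the higher side and 2.36% on the lower, and the unmoderated test gave 1118 of 19938. Fign, encoding a protein of the microtubule-severing fidgetin family, was at 5.03 to 5.62 in DJ-1 hearts and 5.43 to 6.28 in placebo hearts, a difference of -0.46 (SE 0.18, adjusted p = 0.824 in limma). Dcx, the neuronal doublecortin, differed by 0.24 and Map7d3 by -0.18, both at background level.

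Motor and dynactin genes carry cargo along microtubules. Of 35 measured, 14 averaged higher and 21 lower in DJ-1 hearts (median -0.05), and 2 had an unadjusted p under 0.05, both lower, beside 2.36% of all genes on that side. The unmoderated test gave 3, beside 1118 of 19938 genes in both directions. Dynlt3, a dynein light chain, was at 7.42 ± 0.18 in DJ-1 hearts and 7.70 ± 0.15 in placebo hearts (SD, n = 4 each), and Dync1h1, the dynein heavy chain, had a difference of -0.23 (SE 0.10). The kinesin gene Kif3a differed by -0.20. In the list of nucleation and centrosome genes 4 of 17 had a higher and 13 a lower mean, with a median of -0.07. There 1 gene reached an unadjusted 0.05, on the lower side: Pcm1, a centriolar satellite protein, differed by -0.24 (SE 0.09), Cep192 by -0.22 and Tubgcp5, a subunit of the gamma-tubulin ring complex, by -0.33. Adjusted p was 0.824 by limma for all 6, so none passed.

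**Figure D5:**
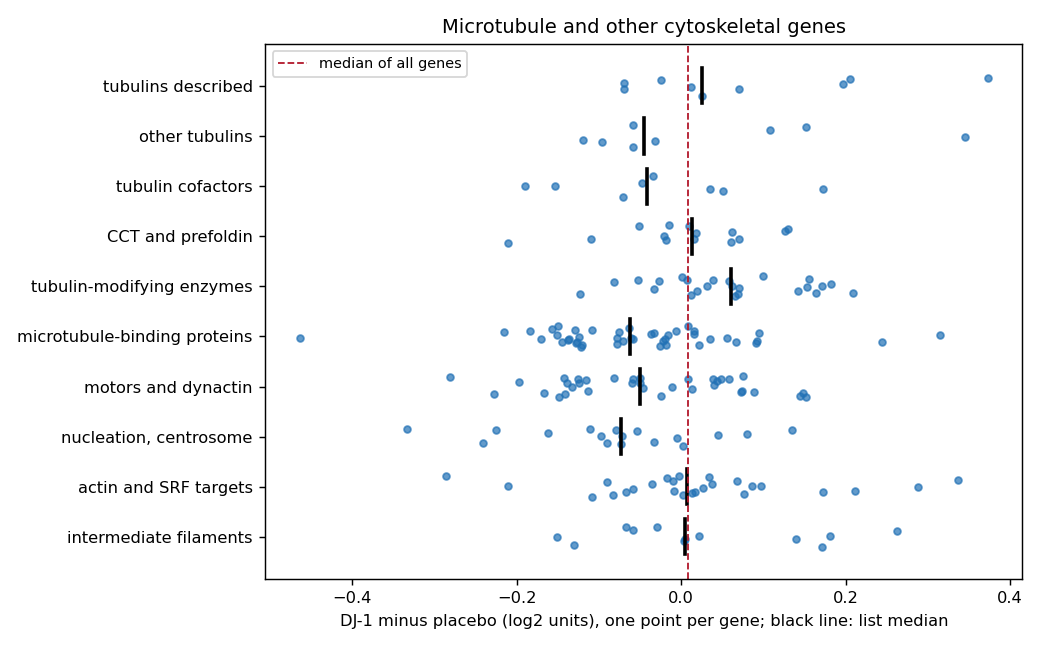
Difference between DJ-1 and placebo hearts in log2 units (horizontal axis), one point per gene, for the 9 tubulins, the 8 further tubulin genes and 8 lists of cytoskeletal genes, with list medians in black and the median of all genes (0.01) as a dashed line. Tubb6 is the point at 0.37 in the first row, and the list medians lie between -0.07 and 0.06.

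The other filament systems gave a median of 0.01 over 26 genes of actin and its SRF-dependent relatives and of 0.005 over 12 intermediate filament genes. Cnn2, a calponin that binds actin, was at 8.40 ± 0.11 in DJ-1 hearts and 8.69 ± 0.08 in placebo hearts (SD, n = 4 each). It was the only gene of these 8 lists whose groups did not overlap (1 of 180 measured), beside 1.54% of all genes apart on the higher side and 1.68% on the lower, and its adjusted p was 0.824 in limma. Acta2, the smooth muscle actin, differed by 0.21 and Tmsb10, which binds actin monomers, by -0.21. Gfap, Prph and Lmnb1 differed by 0.26, 0.18 and 0.14, with Gfap at background. Across the 8 lists 0 of 180 genes passed adjustment. By limma 1 had an unadjusted p under 0.05 on the higher side and 5 on the lower, beside 3.63% and 2.36% of all genes. The unmoderated test gave 7, beside 1118 of 19938 genes in both directions.

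Cell types that could contribute Tubb6 or other tubulin RNA were followed through their markers, whose part in the tubulin values was not tested. The summed signal of 14 neutrophil markers, formed as for platelets, ran from 10.39 to 11.88 in DJ-1 hearts and from 9.0 to 11.52 in placebo hearts, all 14 averaged higher in DJ-1 hearts, and 12 lay above background, Lcn2 and Retnlg among them. Of these 14, 2 had an unadjusted p under 0.05 by limma on the higher side, beside 3.63% of all genes. They were Lcn2 (difference 1.07) and Ltf (0.35, at background), and the unmoderated test gave 0. Macrophage markers, 6 higher and 6 lower, ran from 11.42 to 11.96 in DJ-1 hearts and from 11.27 to 11.90 in placebo hearts, Lyz2 and C1qb being among them. Fibroblast markers had a lower mean for 9 of 10 genes, Dcn and Gsn among them, and their sums were 13.02 to 13.21 in DJ-1 hearts and 13.16 to 13.32 in placebo hearts. Endothelial sums were 12.74 to 12.91 and 12.78 to 13.00 in DJ-1 and placebo hearts, with 4 genes higher and 6 lower, Emcn and Cdh5 among the 10. Smooth muscle and pericyte sums were 12.89 to 13.05 and 12.88 to 13.06, with 2 higher and 8 lower, Acta2 and Abcc9 among the 10. Cardiomyocyte sums were 16.37 to 16.50 and 16.40 to 16.53, with 1 higher and 11 lower. Unadjusted p was under 0.05 on the lower side for the fibroblast genes Lum (-0.31) and Gsn (-0.21), the endothelial gene Kdr (-0.48) and the mural genes Kcnj8 (-0.44) and Pdgfrb (-0.30), beside 2.36% of all genes. The groups did not overlap for Gsn (1 of 10 fibroblast genes) or for Kcnj8 and Pdgfrb (2 of 10 mural genes), beside 1.68% of all genes on the lower side. Limma's adjusted p was 0.824 for each of Lum, Gsn, Kdr, Kcnj8 and Pdgfrb. These genes were named after their values were seen.

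Neuron markers, which bear on Tubb3, averaged higher in DJ-1 hearts for 9 of 11 genes, of which 3 (Dbh, Chat and Elavl4, all at background) had an unadjusted p under 0.05, beside 3.63% of all genes on the higher side. The unmoderated test gave 0. Their sums were 8.20 to 8.51 in DJ-1 hearts and 8.15 to 8.33 in placebo hearts. Only 6 of the 11 lay above background, Uchl1 and Th among them, while Dbh, Chat, Elavl4, Snap25 and Nefl did not. Schwann cell sums were 7.27 to 7.39 and 7.12 to 7.37 over 4 measured genes (3 higher), Sox10 and Mbp among them. Erythroid sums were 9.49 to 10.30 and 8.74 to 10.07 over 4 genes, all higher, Alas2 and Slc4a1 among them. Slc4a1 differed by 0.59 (adjusted p = 0.824 in limma) and was the 1 erythroid gene of 4 with an unadjusted p under 0.05, by both tests. Its groups did not overlap, nor did those of Dbh among the neuron markers, beside 1.54% of all genes on the higher side. Skeletal muscle sums were 12.95 to 13.32 and 12.79 to 13.25, with 4 of 10 higher, Ckm and Acta1 among the 10. By their means the fast myosins Myh1, Myh2 and Myh4 were at background. In placebo replicate 1, however, Myh1 was at 5.85, Myh2 at 5.41, Myh4 at 4.99 and Tnnt3 at 6.92, each the highest of the 8 hearts. Acta1 and Tnni2 were highest in DJ-1 hearts. Whether this bears on the low Tubb2b and Tuba1a of placebo replicate 1 was not tested.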

How the data were processed

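Biotin-labelled DNA made from myocardial total RNA of 8 samples (RNA integrity number above 7, 100 ng each) was hybridised to Affymetrix arrays, per the labels' protocols. The deposited table holds log2 values of 35556 probe sets, made with RMA per the submitters' processing notes. Which RMA version was run is not given in the sources used here. RMA's shared scaling makes values relative across arrays, and levels of different probes are not comparable as amounts. Mean level served to choose each gene's probe set, the genes searched for likeness to Tubb6, the bright genes and the markers to name. It also served for the background calls, which set different probes side by side and are only a rough guide. No scan date was used, so batches were not examined.

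By the platform annotation, 21789 probe sets had 1 symbol, 1621 had several and 12146 had none. Of the singly named, 21698 were found in the RefSeq gene table (GRCm38.p6) by Entrez ID, and 0 symbols changed. Each gene took its highest-mean probe set, and each measured tubulin has 1. The contrast of DJ-1 and placebo was fitted with lmFit and eBayes of limma 3.58.1 under R 4.3.3, two-sided and without covariates, and p-values were adjusted over all 19938 genes (Benjamini-Hochberg). The scripts were tested on simulated data. The number of arrays limits precision (median SE 0.12). Correlations used exact permutation within groups.

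Named were all tubulins, the 3 genes of smallest p in each cytoskeletal list, the 2 of highest mean in each marker list and the genes most like Tubb6. The members, the 21 lists (319 entries) and the tests were chosen with earlier results of these data known. Alternatives were 3 scalings, an intensity trend, no moderation, mean probe sets, bright genes only, a replicate block and left-out arrays.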

Additional observations from a re-analysis of the deposited data

Results flagged for a closer look

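In 10 of 148 groups of 4 arrays, over 74 named genes, 1 array stood far from the other 3 by Dixon's test at the 95% level. Chance flags about 1 group in 20. Of the tubulins, Tubb5 was at 9.58 and Tuba1a at 9.20 in DJ-1 replicate 2, against 9.76 to 9.77 and 9.39 to 9.41 in the other DJ-1 hearts. Tube1 was at 4.74 in the same heart against 4.61 to 4.62, at background, and Tuba3a at 6.05 in placebo replicate 3 against 5.75 to 5.79. Spin1 was at 8.10 in placebo replicate 4 against 8.17 to 8.18. Tbcel was at 6.71 in DJ-1 replicate 4 against 6.94 to 6.99, and Ttll6 at 4.04 in DJ-1 replicate 2 against 4.22 to 4.25. In placebo replicate 1 Dynlt3 was at 7.48 against 7.75 to 7.80, and Tmsb10 at 6.86 against 7.26 to 7.31. Pcm1 was at 8.10 in placebo replicate 3 against 8.33 to 8.38. The cause of these deviations was not tested.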

How the results depend on the processing

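The Tubb6 difference of 0.37 is what the gene was picked on, so its range here is a description. It ran from 0.33 to 0.42 when each array was left out and from 0.33 to 0.41 under the other alternatives. An intensity trend, a replicate block and averaged probe sets cannot move these differences, since each tubulin has 1 probe set and the groups are equal in size. Under the scalings and left-out arrays no tubulin's difference moved by more than the SD within groups, but signs of small differences changed, most often for Tuba4a (6 alternatives). Without DJ-1 replicates 3 and 4, Tubb2a differed by -0.06 and Tuba8 by -0.13, and 2 rather than 6 tubulins averaged higher. The count of genes past adjusted p 0.05 was 0 under each alternative except one: without DJ-1 replicate 3 it was 1, so the range over left-out arrays was 0 to 1. That gene, named after its values were seen, was Pramel27 (1.01, adjusted p = 0.044 in limma, against 0.105 with all arrays), at a background mean of 4.23. Same-numbered arrays of the groups correlated at 0.005, 0.17, 0.18 and 0.008 in their deviations, so the numbers were not taken to pair the samples. With the replicate number as a block the count was 0, unadjusted p under 0.05 was reached by 1302 genes against 1194 without the block, and the Tubb6 difference stayed 0.37. No relation of a tubulin to Tubb6 passed (0) under 3 scalings, averaged probe sets or any left-out array. With the block also removed from the deviations, r with Tubb6 was 0.98 for Tubb2a and 0.97 for Tubb4a against 0.06 and 0.02 without it, untested because few degrees of freedom remain. Tubb3, Tuba3b, Tubal3 and Tube1 had signals at background, which limits their differences.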
